A study of Mus musculus with 6 samples.

Results

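The 9 genes described here are *Pthlh*, which encodes parathyroid hormone-related protein (PTHrP), and 8 genes of receptors that signal through the stimulatory G protein Gs. *Pth1r* encodes the receptor of PTHrP and parathyroid hormone. *Ptger4*, *Ptger2* and *Ptgir* encode receptors of prostaglandin E2 and prostacyclin. *Adora2a* and *Adora2b* encode adenosine receptors. *Calcrl* encodes the calcitonin receptor-like receptor, and *Ramp1* the single-pass chain that makes it a receptor of calcitonin gene-related peptide (CGRP). The members were listed by symbol, with earlier results of these data known, and all 9 were found among the 33696 genes of the count matrices.

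Gs-coupled receptors activate adenylyl cyclase, and the cyclic AMP that is made activates protein kinase A, which phosphorylates the transcription factor CREB among other proteins. In the growth plate, PTHrP from resting cells near the bone end acts on *Pth1r* of proliferating and prehypertrophic chondrocytes and delays hypertrophy, while Indian hedgehog (*Ihh*) from prehypertrophic chondrocytes raises *Pthlh*. In tendon, PTHrP is known from the fibrous insertion into bone, prostaglandin E2 is made after overuse and injury, and CGRP is released by sensory nerve endings.

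Gene expression of single cells was measured in 6 libraries of Achilles tendon cells, 1 library per condition. Cells of uninjured mice and of mice at 7 and 21 days post injury (dpi) after tenotomy were sorted by reporter signal into *Gli1*+ and *Gli1*- fractions. All mice carried *Gli1-CreERT2* and the Ai9 reporter and had received tamoxifen, so the sort was meant to follow cells in which the *Gli1* promoter was active at induction and their progeny, in whatever tissue layer they lay. The reporter transcript is not among the genes of the matrices, so the sort could not be checked. The labels state 8 mice per time point, 24 in all, with both sexes in equal number, and give neither an age nor a map from cells to mice. Conditions could not be tested against each other because each is 1 library, cells were not taken as replicates, and each 95% interval below covers counting error only.

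After filters, the *Gli1*+ libraries held 7057, 9250 and 9780 cells and the *Gli1*- libraries 10882, 9931 and 10867 (uninjured, 7 dpi and 21 dpi, the order used throughout), with 53589094 to 107739968 unique molecular identifiers (UMIs) per library. Between 27 and 75 barcodes were shared by any pair of libraries, at most 0.534% of the smaller one. *Gli1* mRNA did not separate the sorts, at 6.62, 2.15 and 4.12 counts per 1000000 UMIs (CPM) in the libraries labelled *Gli1*+ and 7.52, 2.55 and 3.93 CPM in those labelled *Gli1*-. *Xist* without UMIs of Y-linked genes was found in 68.8% of cells of the uninjured *Gli1*+ library and in at least 90.6% at 21 dpi, but in at most 0.0108% of the uninjured *Gli1*- library and of both libraries at 7 dpi. These shares do not match the equal number of the sexes stated in the labels. The uninjured *Gli1*+ and *Gli1*- libraries differed in sex, so a ratio between them is not one of the sort alone. In the *Gli1*- sort, both libraries of the 7 dpi comparison were nearly without *Xist* cells. In its 21 dpi comparison time and sex cannot be told apart, and no ratio within 1 sex could be given. Sex also differed between the *Gli1*+ libraries, so time and sex cannot be told apart in ratios of those libraries as a whole. Log2 ratios within cells of 1 sex are given where both libraries held enough of them. These were 7 dpi over uninjured in both sorts, and 21 dpi over uninjured in *Gli1*+ cells. Lymphoid-like, myeloid-like and mast cell-like clusters were present in the uninjured *Gli1*+ library alone. Comparisons between libraries therefore use mesenchymal cells, the clusters named stem cell-like, tenocyte-like or chondrocyte-like together with clusters without a name in which *Pdgfra* reached 100 CPM. They numbered 2449, 7031 and 7904 *Gli1*+ and 5779, 8045 and 7599 *Gli1*- cells. The tenocyte-like class held *Scx*, *Tnmd*, *Fmod* and *Thbs4* in every library (*Tnmd* at 347 to 905 CPM), and the stem cell-like class *Ly6a* and *Pi16* (*Ly6a* at 1276 to 2463 CPM). Clusters were built without these 9 genes, the genes of the other lists and the class markers. The markers then named the classes, and a level by class is a description. Some classes hold several clusters, numbered within each sort, whose mix differs between time points. *Gli1*- smooth muscle/pericyte-like cells were 693, 191 and 121 cells of cluster 9 and 194, 299 and 878 of cluster 6, and *Gli1*- endothelial-like cells 2440, 556 and 414 of cluster 3 and 119, 275 and 754 of cluster 8. Tenocyte-like cells of *Gli1*+ libraries were mainly cluster 6 before injury (688 of 747 cells), cluster 12 at 7 dpi (776 cells) and cluster 1 at 21 dpi (2793 of 3177), and those of *Gli1*- libraries 197, 236 and 209 cells of cluster 13 and 58, 101 and 4771 of cluster 1. Stem cell-like cells of *Gli1*+ libraries were cluster 4 before injury (1388 cells), cluster 3 at 7 dpi (2120) and clusters 2 and 4 at 21 dpi (2722 and 470). A level of such a class at different time points is therefore a level of different mixes, and values within clusters are given for some genes only.

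**Figure D1:**
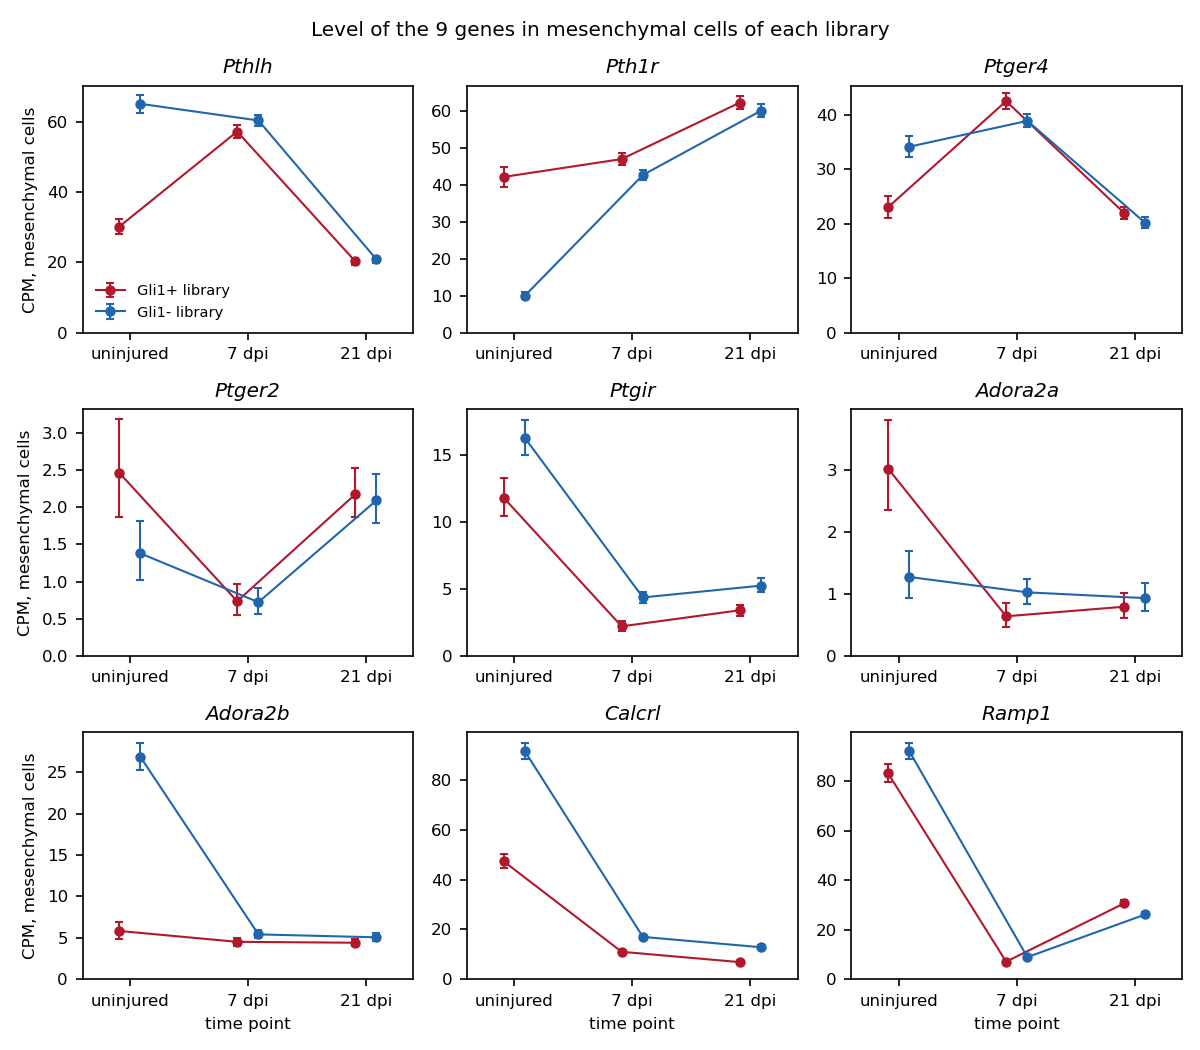
Level of each of the 9 genes in mesenchymal cells, in CPM on linear axes from 0, by time point. Points are libraries, joined by sort, with bars for the exact Poisson 95% interval of the UMI count. *Calcrl*, *Ramp1* and *Ptgir* are highest in the uninjured library of each sort, and *Pth1r* is lowest in the uninjured *Gli1*- library at 9.95 CPM.

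Mesenchymal cells of injured and uninjured tendon were compared first. A gene is counted as apart when its CPM differed at least 2-fold between the libraries and it held at least 20 UMIs in both together, which all 9 genes did in each comparison. In *Gli1*+ cells at 7 dpi, 5 of the 9 genes were lower than in uninjured cells (*Ramp1*, *Ptgir*, *Adora2a*, *Calcrl* and *Ptger2*) and 0 were higher, beside 36.3% of all 18405 genes tested that were apart. At 21 dpi, 4 were lower (*Calcrl*, *Adora2a*, *Ptgir* and *Ramp1*) and 0 higher, beside 31.3%. In *Gli1*- cells at 7 dpi, *Pth1r* was higher and *Ramp1*, *Calcrl*, *Adora2b* and *Ptgir* were lower, 5 genes beside 32% of all genes. At 21 dpi, *Pth1r* was higher and *Calcrl*, *Adora2b*, *Ramp1*, *Pthlh* and *Ptgir* were lower, 6 genes beside 31.6%. Both time points were set against the same uninjured library of their sort.

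The background in 1 direction was smaller. Of all genes tested, 21.9% were at least 2-fold lower in *Gli1*+ cells at 7 dpi, 23% at 21 dpi, 16.3% in *Gli1*- cells at 7 dpi and 17.3% at 21 dpi, and 14.5%, 8.26%, 15.6% and 14.2% were at least 2-fold higher. The median log2 ratio over the 9 genes was -1.75, -0.57, -0.93 and -1.63 in these comparisons, beside medians over all genes of -0.19, -0.36, -0.07 and -0.11. Scaling by TMM factors (trimmed mean of M-values, which align the bulk of the genes) shifted the log2 ratios by 0.30, 0.46, 0.10 and 0.18, which put *Pthlh* and *Ptger4* past 2-fold in *Gli1*+ cells at 7 dpi, put *Pth1r* past it at 21 dpi and took *Ramp1* at 21 dpi back under it.

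**Figure D2:**
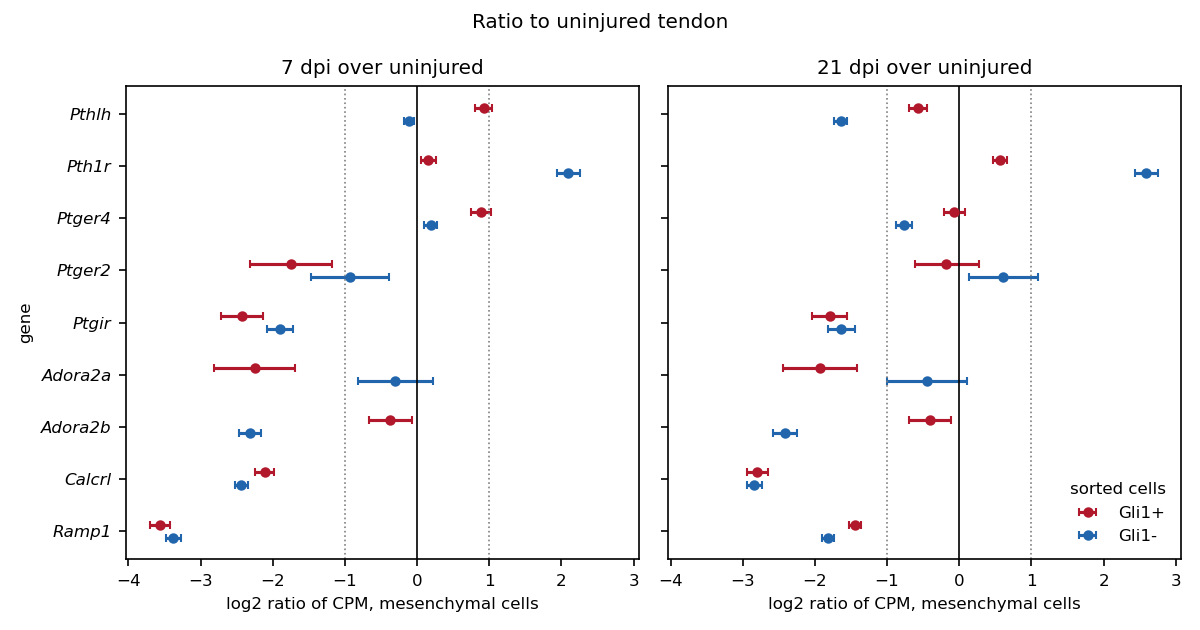
Log2 ratio of CPM over uninjured for the 9 genes in mesenchymal cells at 7 and 21 dpi, by sort, with 95% intervals from the counts given their sum and lines at 2-fold. *Ramp1*, *Calcrl* and *Ptgir* lie below the lower line in all 4 comparisons, and *Pth1r* lies above the upper line in *Gli1*- cells.

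*Pthlh* encodes a secreted ligand. Mesenchymal cells held it at 30.1 CPM in uninjured (interval 28.0 to 32.5), 57.2 CPM in 7 dpi (55.5 to 59.0) and 20.3 CPM in 21 dpi *Gli1*+ cells (19.3 to 21.3). It was, in *Gli1*- cells, 65.1 CPM (62.5 to 67.8), 60.4 CPM (58.9 to 61.9) and 20.8 CPM (19.8 to 21.9). The uninjured *Gli1*+ library lay under its *Gli1*- counterpart by 1.11 on the log2 scale (*Gli1*+ over *Gli1*-, -1.11, interval -1.23 to -0.99), the libraries at 7 dpi were high in both sorts, and those at 21 dpi were low in both. The log2 ratio over uninjured was 0.92 (0.81 to 1.04) at 7 dpi and -0.57 (-0.70 to -0.44) at 21 dpi among *Gli1*+ cells. The *Gli1*- cells gave -0.11 (-0.18 to -0.04) and -1.64 (-1.74 to -1.55). Within cells with Y-linked and no *Xist* UMIs, the ratio at 7 dpi was 0.90 in *Gli1*+ and -0.18 in *Gli1*- cells. Within *Xist* cells of the *Gli1*+ libraries the ratio at 21 dpi was -0.49. The cells used moved these values, since over all kept cells the *Gli1*+ ratios were 1.90 and, with the sign turned, 0.51, and the *Gli1*- ratio at 7 dpi was 0.30.

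Most *Pthlh* UMIs lay in mesenchymal cells, 85.5%, 93.9% and 88.9% of those in *Gli1*+ and 97.0%, 98.1% and 92.0% of those in *Gli1*- libraries. After thinning each cell to 2000 UMIs, 4.02%, 9.97% and 2.91% of the *Gli1*+ and 7.62%, 10.5% and 3.08% of *Gli1*- mesenchymal cells held a *Pthlh* UMI. In lymphoid-like cells of the uninjured *Gli1*+ library the share was 0.135% at a median of 7768.5 UMIs per cell, beside 8558 UMIs in the mesenchymal cells of that library. Some other classes had a higher share than lymphoid-like cells. Epidermal-like cells held a *Pthlh* UMI in 3.16% (0.656% to 8.95%) of *Gli1*- cells at 21 dpi, beside the 3.08% of mesenchymal cells, and in 2.54% (1.53% to 3.93%) of *Gli1*+ cells at 21 dpi, beside 2.91%, so the mesenchymal share at 21 dpi lay within these intervals.

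By class, *Pthlh* was highest in stem cell-like cells at 7 dpi. Their level was 40.0, 140 and 18.3 CPM in the *Gli1*+ and 96.5, 159 and 29.7 CPM in the *Gli1*- cells. Different clusters made up the *Gli1*+ class at the 3 time points, since 1 cluster held 1388 of its 1407 cells in uninjured tendon and another 2120 of its 2133 cells at 7 dpi, and *Pthlh* was among the 10 leading genes of the latter. At 21 dpi cluster 2 held 15.2 CPM (13.6 to 16.8), and cluster 4, the uninjured one, held 46.9 CPM (38.5 to 56.5) beside 40.3 CPM (37.1 to 43.8) before injury, so the lower class level at 21 dpi is not seen within cluster 4. In *Gli1*- libraries the class was a single cluster of 980, 185 and 84 cells, whose log2 ratio at 7 dpi over uninjured was 0.72 (0.46 to 0.97). At 7 dpi this cluster held only 2.64% of the *Pthlh* UMIs of the *Gli1*- library. The unnamed clusters 0 and 4, of 5015 and 1671 cells, held 69.6% and 16.9% of them, at 58.1 and 107 CPM. In tenocyte-like cells, *Pthlh* stood at 17.2, 51.5 and 25.4 CPM in the *Gli1*+ and 74.1, 55.1 and 25.0 CPM in the *Gli1*- libraries. No *Gli1*+ cluster of the class held 50 cells at all 3 time points. *Pthlh* was 10.7 and 11.6 CPM in cluster 6 and 88.9 and 26.2 CPM in cluster 1 (uninjured and 21 dpi) and 52.0 CPM in cluster 12 at 7 dpi. In *Gli1*- libraries it was 27.8, 17.1 and 15.1 CPM in cluster 13 and 141, 127 and 25.3 CPM in cluster 1, highest before injury in both. The intervals before injury and at 7 dpi overlapped in both clusters (19.0 to 39.3 and 11.6 to 24.3 CPM in cluster 13, 116 to 170 and 105 to 151 CPM in cluster 1). Chondrocyte-like cells, which appeared in number at 21 dpi, held 1.83 CPM in *Gli1*+ (0.735 to 3.77) and 1.24 CPM in the *Gli1*- libraries (0.456 to 2.70), the lowest of the mesenchymal classes at that time. The 40 such cells of the *Gli1*- library at 7 dpi held 21.1 CPM (11.5 to 35.4), from 14 UMIs. Those of the uninjured *Gli1*+, 7 dpi *Gli1*+ and uninjured *Gli1*- libraries, 24, 19 and 16 cells, held 2, 0 and 0 *Pthlh* UMIs. Epidermal-like cells held 13.8 to 19.4 CPM in the 4 libraries with at least 50 of them.

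The sequence of 250 bases before the *Pthlh* start is shown as that of the ligand gene. It lies at chr6:147264014-147264263 (GRCm38.p6, minus strand, from RefSeq) and is upstream of the transcribed part. Capitals in this and the following promoters mark TGACG or its complement CGTCA, the core of the cyclic AMP response element TGACGTCA, which contains it on both strands. Either orientation of the core occurs in 17.8% of 32851 mouse promoters of this length, and TGACGTCA in 1.55%.
Pthlh: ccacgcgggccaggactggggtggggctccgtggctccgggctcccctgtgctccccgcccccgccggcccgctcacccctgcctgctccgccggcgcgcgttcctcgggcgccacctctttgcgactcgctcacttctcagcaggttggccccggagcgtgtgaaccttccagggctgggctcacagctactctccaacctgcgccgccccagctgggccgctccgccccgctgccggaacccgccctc
These letters are not in the window of *Pthlh*, which has 4 copies of GGGCGG or its complement CCGCCC, a motif found in 32.7% of the promoters. Promoter tables held 8 of the 9 genes, without *Adora2a*, and 6 of these 8 held GGGCGG before at least 1 start.

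*Pth1r* encodes the receptor for PTHrP. Mesenchymal cells held it at 42.1 CPM in uninjured (39.5 to 44.8), 46.9 CPM in 7 dpi (45.3 to 48.5) and 62.1 CPM in 21 dpi *Gli1*+ cells (60.4 to 63.9). In *Gli1*- cells it was 9.95 CPM (8.96 to 11.0), 42.6 CPM (41.3 to 43.9) and 59.9 CPM (58.2 to 61.7). The uninjured *Gli1*- library was low, and the other 5 libraries lay between 42.1 and 62.1 CPM. On the log2 scale the ratio over uninjured was 2.10 (1.94 to 2.25) at 7 dpi and 2.59 (2.44 to 2.75) at 21 dpi among *Gli1*- cells, and 0.16 (0.05 to 0.26) and 0.56 (0.46 to 0.66) in the *Gli1*+ cells. Within Y-linked cells the ratio at 7 dpi was 2.09 in *Gli1*- and 0.35 in *Gli1*+ cells, and within *Xist* cells of the *Gli1*+ sort it was 0.49 at 21 dpi. The *Gli1*+ ratio at 7 dpi was -0.06 without the unnamed clusters. Over all kept cells the *Gli1*+ ratios were 1.18 at 7 dpi and 1.65 at 21 dpi, both past 2-fold. The share of thinned mesenchymal cells with a *Pth1r* UMI was 4.81%, 8.44% and 7.90% in the *Gli1*+ and 1.36%, 7.83% and 7.80% in *Gli1*- libraries. In lymphoid-like cells of the uninjured *Gli1*+ library no thinned cell held one, which allows a share of up to 0.101%, and in epidermal-like cells the share was 0.267% to 1.05%. The 1.36% of the uninjured *Gli1*- library lies close to those epidermal-like values.

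*Pth1r* was far higher in chondrocyte-like cells than in any other class. Their level was 617, 332 and 620 CPM in the *Gli1*+ and 333, 468 and 504 CPM in the *Gli1*- libraries, from 24, 19 and 253 and from 16, 40 and 379 cells. At 21 dpi, 52.2% of thinned *Gli1*+ chondrocyte-like cells (45.8% to 58.6%) and 44.3% of *Gli1*- ones (39.2% to 49.5%) held a *Pth1r* UMI. These cells were 3.20% and 4.99% of the mesenchymal cells at 21 dpi and held 48.0% and 52.5% of the mesenchymal *Pth1r* UMIs. In uninjured *Gli1*+ tendon, 0.980% of mesenchymal cells held 38.2% of them, but 20 of these 24 cells were bone-like by the genes given below. Without chondrocyte-like cells, mesenchymal *Pth1r* was 26.7, 45.8 and 33.9 CPM in the *Gli1*+ and 7.82, 39.7 and 30.4 CPM in the *Gli1*- cells, and the log2 ratio at 21 dpi over uninjured was 0.35 and 1.96. Smooth muscle/pericyte-like cells came next at 21 dpi, with 65.2, 55.7 and 56.3 CPM in the *Gli1*+ and 37.1, 58.5 and 57.4 CPM in the *Gli1*- libraries. Within the *Gli1*- class, *Pth1r* was 35.8, 68.1 and 58.4 CPM in cluster 6, higher after injury. In cluster 9 it was 37.8 (30.2 to 46.7), 21.0 (10.1 to 38.7) and 29.7 CPM (12.8 to 58.5), from 85, 10 and 8 UMIs. These intervals overlapped, so cluster 9 gives no order of the time points.

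The chondrocyte-like clusters also held cells with bone genes, since *Bglap*, *Bglap2* and *Ibsp* were among their leading genes in the *Gli1*+ libraries. At 21 dpi, cells with more UMIs of *Col2a1*, the main cartilage collagen, than of *Bglap*, the osteocalcin gene, numbered 200 in the *Gli1*+ and 253 in the *Gli1*- library. Their *Pth1r* level was 625 CPM (598 to 653) and 563 CPM (539 to 588). The 24 and 30 cells with more *Bglap* held 651 CPM (560 to 752) and 484 CPM (410 to 567), so both kinds of cell were high. The other 29 and 96 chondrocyte-like cells, with as many UMIs of *Col2a1* as of *Bglap*, held 546 CPM (471 to 629) and 213 CPM (181 to 249), the latter lower than both kinds. *Ihh* was at 125 and 71.0 CPM and *Col10a1*, the collagen of hypertrophic cartilage, at 1230 and 1191 CPM in the cells with more *Col2a1*. In the cells with more *Bglap*, *Ihh* held 0 UMIs in the *Gli1*+ library, which allows up to 13.1 CPM, and 2 UMIs in the *Gli1*- library. *Col10a1* held 0 UMIs in both, which allows up to 13.1 and 11.7 CPM. In uninjured *Gli1*+ tendon, 20 of the 24 chondrocyte-like cells had more *Bglap* than *Col2a1*, with *Pth1r* at 625 CPM (562 to 694) and *Ramp1* at 346 CPM (299 to 398). These 20 cells held *Bglap* at 44225 CPM and *Col2a1* at 1121 CPM. They held 0 UMIs of the cartilage gene *Acan* and 2 of *Sox9*, so by these genes they were bone-like. *Ibsp*, the bone sialoprotein gene, did not follow this split. It was at 6161 CPM in those uninjured cells, and at 21 dpi at 18579.5 CPM in the cells with more *Col2a1* and 10064 CPM in those with more *Bglap* in the *Gli1*+ library, against 5901 and 12224 CPM in the *Gli1*- library.

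**Figure D3:**
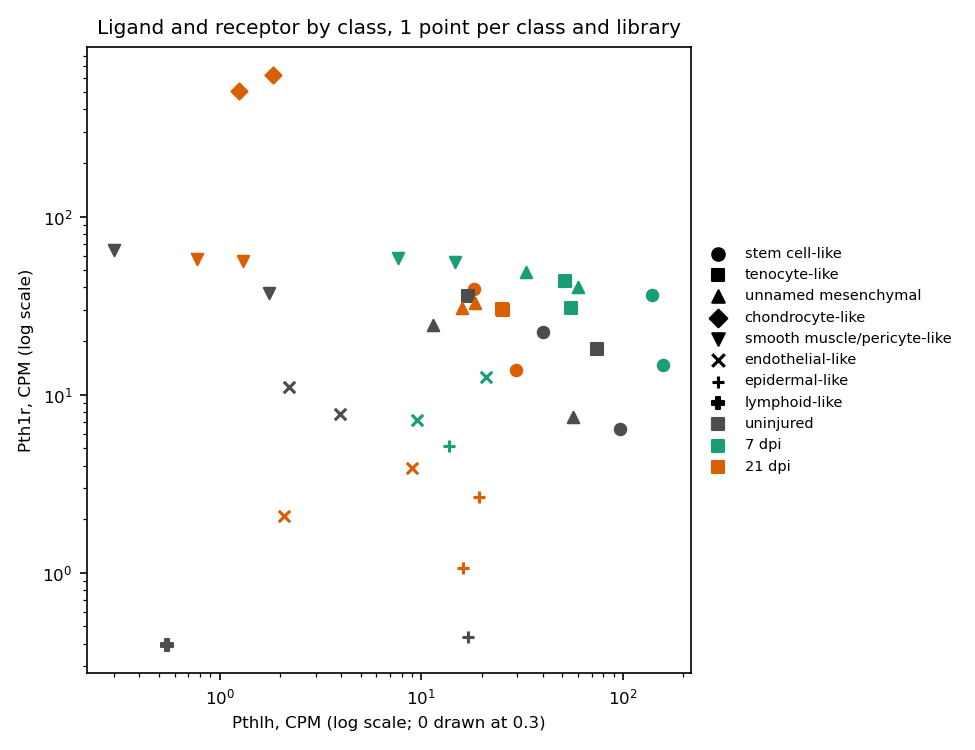
Level of *Pthlh* (horizontal) against *Pth1r* (vertical), both in CPM on log axes, with 1 point per class and library of at least 50 cells for 8 classes, marked by class and coloured by time point. Chondrocyte-like cells of 21 dpi lie at the top left, with *Pth1r* at 620 and 504 CPM and *Pthlh* at 1.83 and 1.24 CPM, and stem cell-like cells of 7 dpi at the far right, with *Pthlh* at 140 and 159 CPM.

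Joint detection of ligand and receptor was counted in single mesenchymal cells. Without thinning, *Pth1r* was found in 17.2%, 35.3% and 22.5% of *Gli1*+ cells with a *Pthlh* UMI, and in 19.2%, 32.0% and 26.3% of the other *Gli1*+ mesenchymal cells. In *Gli1*- libraries the shares were 6.74%, 35.1% and 19.8% in *Pthlh* cells and 4.40%, 34.0% and 25.3% in the others. Cells with a *Pthlh* UMI had more UMIs in all 6 libraries, for example a median of 10142 and 8339 in uninjured *Gli1*+ cells, and the part of depth in these shares was not tested. The share was lower in *Pthlh* cells at 21 dpi in both sorts, and also in uninjured *Gli1*+ cells. The part of the chondrocyte-like cells in this was not tested.

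RefSeq lists 3 starts of *Pth1r*, and the sequence before the one farthest upstream is shown because it is the only promoter among the 8 genes with the core of the response element. It lies at chr9:110747146-110747395 (GRCm38.p6, minus strand). The match, CGTCA, begins 161 bases before the start.
Pth1r: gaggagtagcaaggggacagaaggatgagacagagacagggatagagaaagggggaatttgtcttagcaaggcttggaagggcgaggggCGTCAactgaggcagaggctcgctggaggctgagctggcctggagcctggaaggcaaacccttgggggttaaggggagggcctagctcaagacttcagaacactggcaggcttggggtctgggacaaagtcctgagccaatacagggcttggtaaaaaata
The other two starts, with windows at chr9:110743687-110743936 and chr9:110742611-110742860, had 0 copies of the core. Counts from the end of the transcript do not tell which start was used.

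Of 8 genes listed for the growth-plate loop around PTHrP (*Ihh*, *Ptch1*, *Gli1*, *Sox9*, *Col10a1*, *Col2a1*, *Acan* and *Mef2c*), 6 could be counted in *Gli1*+ cells at 7 dpi, where 2 were higher and 1 lower, and all 8 at 21 dpi, where 4 were higher and 1 lower. In *Gli1*- cells 7 were counted at 7 dpi, with 2 higher and 1 lower, and 8 at 21 dpi, with 5 higher and 1 lower. Of all genes, 14.5%, 8.26%, 15.6% and 14.2% were higher and 21.9%, 23%, 16.3% and 17.3% lower in these comparisons. *Col2a1* stood at 35.8, 89.7 and 835 CPM in the *Gli1*+ and 1.27, 126 and 1361 CPM in the *Gli1*- mesenchymal cells. *Acan*, the cartilage proteoglycan, stood at 2.38, 120 and 229 CPM and at 0.568, 132 and 262 CPM. Both collagen and proteoglycan were lowest before injury and highest at 21 dpi in each sort. These levels lay unevenly over the mesenchyme. At 21 dpi the chondrocyte-like cells with more *Col2a1* than *Bglap* were 200 of 7904 *Gli1*+ and 253 of 7599 *Gli1*- mesenchymal cells. They held *Col2a1* at 20162 and 26026 CPM and *Acan* at 2519 and 2835 CPM. *Mef2c*, which drives chondrocyte hypertrophy, was at 82.2, 46.8 and 50.5 CPM and at 58.8, 56.5 and 56.6 CPM. *Gli1*, the hedgehog target that gave the sort its name, was the lower gene in all 4 comparisons.

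*Calcrl* encodes a receptor that needs a RAMP chain, and binds CGRP with RAMP1 and adrenomedullin with RAMP2 or RAMP3. Mesenchymal cells held it at 47.4 CPM in uninjured (44.6 to 50.2), 11.0 CPM in 7 dpi (10.2 to 11.8) and 6.83 CPM in 21 dpi *Gli1*+ cells (6.26 to 7.42). It was, in *Gli1*- cells, 91.6 CPM (88.5 to 94.7), 17.0 CPM (16.2 to 17.8) and 12.8 CPM (12.0 to 13.6). Both uninjured libraries were high and the 4 injured ones low, and the *Gli1*- library was the higher at each time point. The log2 ratio over uninjured was -2.11 (-2.24 to -1.98) and -2.80 (-2.95 to -2.65) in the *Gli1*+ and -2.43 (-2.52 to -2.35) and -2.84 (-2.94 to -2.74) in the *Gli1*- cells at 7 and 21 dpi. Within Y-linked cells it was -2.24 in *Gli1*+ and -2.59 in *Gli1*- cells at 7 dpi, and within *Xist* cells of the *Gli1*+ libraries -2.93 at 21 dpi.

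In the single endothelial-like cluster of *Gli1*+ libraries *Calcrl* stood at 226, 260 and 498 CPM, with a log2 ratio at 21 dpi over uninjured of 1.14 (0.98 to 1.29). The *Gli1*- class stood at 171, 263 and 400 CPM (ratio 1.22, interval 1.13 to 1.31), but within it cluster 3 held 152, 126 and 142 CPM and cluster 8 held 335, 331 and 435 CPM, so cluster 3 was not higher at 21 dpi. Lymphatic endothelial-like cells of *Gli1*- libraries held 544 CPM in uninjured and 597 CPM in 21 dpi tendon, the highest levels of any class, and mast cell-like cells of the uninjured *Gli1*+ library 269 CPM (249 to 289) and 18.1% of its *Calcrl* UMIs. Over all kept cells of a *Gli1*- library *Calcrl* was 114, 27.7 and 59.0 CPM, and mesenchymal cells held 55.4%, 56.7% and 17.1% of its UMIs. The *Gli1*- ratio at 21 dpi over all kept cells was -0.95, under 2-fold. Smooth muscle/pericyte-like cells held 68.0, 44.0 and 35.0 CPM in the *Gli1*+ and 83.9, 50.8 and 46.0 CPM in the *Gli1*- libraries. Within the mesenchyme the classes also differed. *Gli1*- stem cell-like cells held 135, 147 and 119 CPM, and the log2 ratio at 21 dpi over uninjured was -0.18 (-0.62 to 0.22). *Gli1*+ stem cell-like cells held 61.2, 33.5 and 13.4 CPM, and unnamed mesenchymal cells 111, 4.94 and 8.42 CPM in the *Gli1*+ and 85.9, 15.8 and 21.1 CPM in the *Gli1*- libraries. Stem cell-like cells were 980 of 5779 mesenchymal cells in the uninjured and 84 of 7599 in the 21 dpi *Gli1*- library. Without the unnamed clusters the *Calcrl* ratio in *Gli1*+ mesenchymal cells was -0.65 at 7 dpi, under 2-fold, and -2.70 at 21 dpi, and in *Gli1*- cells it was -1.38 and -3.55. In tenocyte-like cells the level was 12.9, 11.9 and 8.54 CPM in the *Gli1*- and 1.03 to 2.71 CPM in the *Gli1*+ libraries.

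*Ramp1* was the gene with the largest ratio among the 9. Mesenchymal cells held it at 83.1 CPM in uninjured (79.5 to 86.9), 7.03 CPM in 7 dpi (6.43 to 7.67) and 30.6 CPM in 21 dpi *Gli1*+ cells (29.4 to 31.8). The *Gli1*- cells gave 92.1 CPM (89.0 to 95.2), 8.87 CPM (8.30 to 9.48) and 26.1 CPM (25.0 to 27.3). Both sorts were high before injury, lowest at 7 dpi and between these at 21 dpi. The fold was 11.8 lower at 7 dpi in *Gli1*+ cells (log2 ratio -3.56, interval -3.71 to -3.42) and 10.4 in *Gli1*- cells (-3.38, interval -3.48 to -3.27). At 21 dpi the log2 ratio was -1.44 (-1.53 to -1.35) and -1.82 (-1.90 to -1.74). It was under 2-fold with TMM factors in the *Gli1*+ (-0.98) and over all kept cells in the *Gli1*- sort (-0.89). Within Y-linked cells the ratio at 7 dpi was -4.03 in *Gli1*+ and -3.62 in *Gli1*- cells, and the *Xist* cells of the *Gli1*+ sort gave -1.26 at 21 dpi. The share of thinned cells with a *Ramp1* UMI was 12.8%, 1.68% and 5.99% in the *Gli1*+ and 16.8%, 2.74% and 5.29% in *Gli1*- libraries, beside 0.515% to 1.20% in endothelial-like cells.

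In the single smooth muscle/pericyte-like cluster of *Gli1*+ libraries *Ramp1* was higher at each later time point, with 89.3, 153 and 238 CPM and a log2 ratio at 21 dpi over uninjured of 1.42 (1.05 to 1.81). The *Gli1*- class stood at 79.8, 111 and 206 CPM (ratio 1.37, interval 1.18 to 1.56), but its cluster 6 held 228, 138 and 213 CPM, so this order is not that of cluster 6. Cluster 9 held *Ramp1* at 4.44, 2.10 and 14.8 CPM, from 10, 1 and 4 UMIs, too few to give an order. In stem cell-like cells it was 94.7, 12.8 and 26.8 CPM in the *Gli1*+ and 116, 38.2 and 61.7 CPM in the *Gli1*- libraries, and in tenocyte-like cells 34.3, 4.29 and 32.6 CPM and 17.0, 9.01 and 19.5 CPM. The tenocyte-like log2 ratio at 21 dpi was -0.07 (-0.28 to 0.14) and 0.20 (-0.30 to 0.75), over different mixes of clusters. *Gli1*+ cluster 6 held 34.5 CPM before injury and 11.6 CPM at 21 dpi. *Gli1*+ cluster 1, the larger at 21 dpi with 2793 cells, held 32.6 CPM (19.3 to 51.6) and 33.8 CPM (31.7 to 35.9). *Gli1*- cluster 13 held 12.2 and 25.4 CPM, and *Gli1*- cluster 1 held 24.0 and 19.4 CPM. Lymphoid-like cells, found only in the uninjured *Gli1*+ library, held 165 CPM and 62.1% of its *Ramp1* UMIs. Endothelial-like cells held 1.40 to 4.64 CPM. Chondrocyte-like cells of 21 dpi held 77.3 and 58.2 CPM, and within them the cells with more *Bglap* held 199 CPM (150 to 259) and 259 CPM (206 to 322), against 67.9 CPM (59.2 to 77.6) and 42.9 CPM (36.6 to 50.1) in cells with more *Col2a1*.

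Because the CGRP receptor needs both chains in 1 cell, their joint detection was counted in thinned cells. Of mesenchymal cells with a *Calcrl* UMI, 19.7%, 3.28% and 11.1% in the *Gli1*+ and 18.7%, 5.93% and 12.0% in *Gli1*- libraries also held *Ramp1*. The shares in the other mesenchymal cells were 12.1%, 1.64% and 5.92%, and 16.4%, 2.59% and 5.07%. *Ramp1* was thus more frequent among *Calcrl* cells in each library, and the interval of the share in *Calcrl* cells lay above the share in other cells in the uninjured *Gli1*+, 7 dpi *Gli1*- and 21 dpi *Gli1*- libraries. *Ramp2* was found in 39.9%, 29.0% and 33.3% of the *Gli1*+ and 40.5%, 44.4% and 35.9% of *Gli1*- mesenchymal *Calcrl* cells. In endothelial-like *Calcrl* cells, *Ramp2* was found in 62.4% to 76.8% and *Ramp1* in 0.50% to 2.78%. In smooth muscle/pericyte-like *Calcrl* cells at 21 dpi the order was turned around, with *Ramp1* in 37.1% and 25.7% and *Ramp2* in 2.86% and 4.29%, from 35 and 70 cells.

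**Figure D4:**
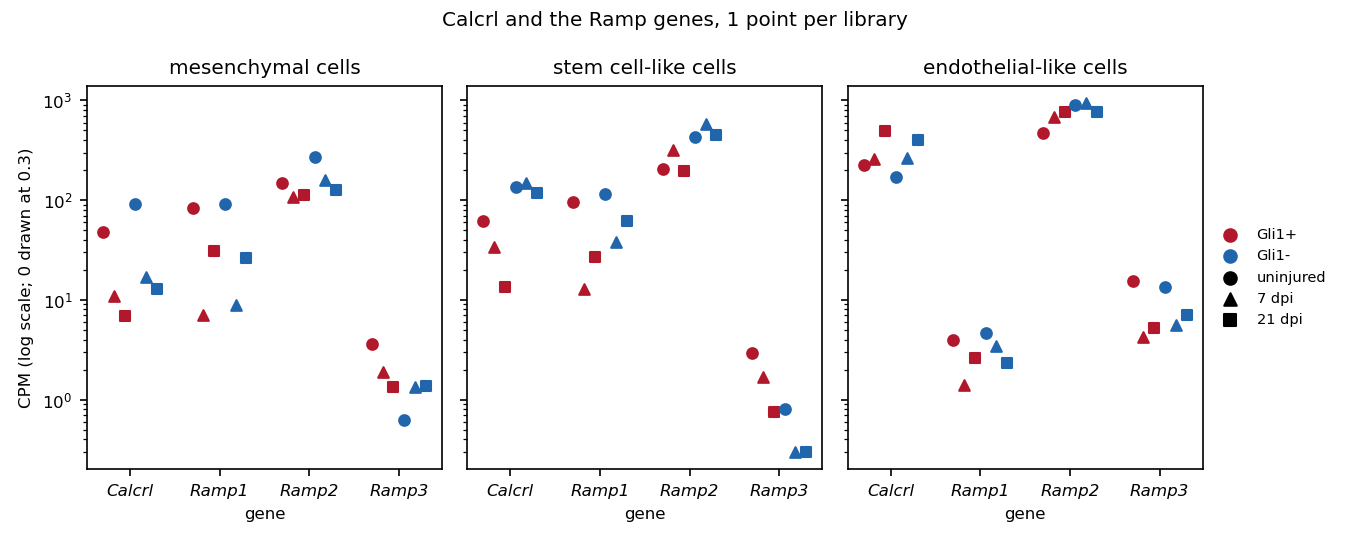
Level of *Calcrl*, *Ramp1*, *Ramp2* and *Ramp3* in mesenchymal, stem cell-like and endothelial-like cells, in CPM on a log axis with 0 drawn at 0.3, with 1 point per library, coloured by sort and shaped by time point. *Ramp1* is at 1.40 to 4.64 CPM in endothelial-like cells, where *Calcrl* is at 171 to 498 CPM, and *Ramp3* is the lowest of the 4 genes in mesenchymal cells.

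*Ramp2*, *Ackr3* and *Ptgfr* were the genes with most UMIs on the list of partners and other receptors of the same ligands. In mesenchymal cells *Ramp2* stood at 149, 107 and 112 CPM in the *Gli1*+ and 268, 158 and 126 CPM in the *Gli1*- libraries. *Ramp3* was at 0.622 to 3.57 CPM. *Ackr3*, an atypical receptor that binds adrenomedullin, was at 537, 315 and 433 CPM and at 916, 426 and 477 CPM, and *Ptgfr*, the receptor of prostaglandin F2alpha, at 19.4, 30.7 and 31.4 CPM and at 54.0, 37.6 and 35.4 CPM. The uninjured *Gli1*- library was the highest of the 6 for each of *Ramp2*, *Ackr3* and *Ptgfr*. Of the 11 genes on this list, 9, 9, 8 and 8 could be counted at 7 and 21 dpi in *Gli1*+ and then in *Gli1*- cells, with 1, 2, 3 and 3 higher and 2, 2, 1 and 1 lower than in uninjured cells, beside 14.5%, 8.26%, 15.6% and 14.2% higher and 21.9%, 23%, 16.3% and 17.3% lower among all genes. *Adm*, which encodes adrenomedullin, stood at 72.4, 35.9 and 34.4 CPM in the *Gli1*+ and 262, 57.8 and 35.9 CPM in the *Gli1*- mesenchymal cells and was among the genes counted as lower in all 4 comparisons. *Calca*, which encodes CGRP, held at most 1.15 CPM in any library and was among the genes counted as higher in *Gli1*- cells at 7 and 21 dpi.

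The promoters of *Calcrl*, *Ramp1* and *Ptgir* are shown together because these 3 genes were lower at both time points in both sorts. None of the 3 windows holds TGACG or CGTCA. *Calcrl* lies at chr2:84425267-84425516 (minus strand), *Ramp1* at chr1:91179572-91179821 (plus strand) and *Ptgir* at chr7:16906240-16906489 (plus strand), all in GRCm38.p6 from RefSeq.
Calcrl: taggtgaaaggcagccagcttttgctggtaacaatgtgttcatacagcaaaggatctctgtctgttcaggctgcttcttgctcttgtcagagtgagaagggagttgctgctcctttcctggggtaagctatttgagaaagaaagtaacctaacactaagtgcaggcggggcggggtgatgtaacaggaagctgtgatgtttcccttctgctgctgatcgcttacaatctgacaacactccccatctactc
Ramp1: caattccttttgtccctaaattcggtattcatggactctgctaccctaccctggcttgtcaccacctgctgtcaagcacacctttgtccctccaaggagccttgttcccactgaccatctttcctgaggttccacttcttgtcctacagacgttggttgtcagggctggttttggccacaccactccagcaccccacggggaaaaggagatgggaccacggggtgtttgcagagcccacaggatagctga
Ptgir: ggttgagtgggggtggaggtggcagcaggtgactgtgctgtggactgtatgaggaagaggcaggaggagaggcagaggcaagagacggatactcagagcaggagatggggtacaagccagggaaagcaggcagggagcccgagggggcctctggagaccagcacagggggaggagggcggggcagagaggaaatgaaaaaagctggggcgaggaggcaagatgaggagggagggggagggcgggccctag
GGGCGG or its complement occurs in *Calcrl* (1 copy) and *Ptgir* (2 copies) and not in the windows of *Ramp1* and *Ptger2*.

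*Ptgir* encodes the prostacyclin receptor, known for relaxing vascular smooth muscle. Mesenchymal cells held it at 11.8, 2.21 and 3.41 CPM in the *Gli1*+ and 16.3, 4.37 and 5.25 CPM in the *Gli1*- libraries, from 159 to 602 UMIs each. Both uninjured libraries were high. On the log2 scale the ratio over uninjured was -2.42 (-2.71 to -2.14) and -1.80 (-2.04 to -1.55) in the *Gli1*+ and -1.90 (-2.08 to -1.72) and -1.63 (-1.82 to -1.45) in the *Gli1*- cells at 7 and 21 dpi. For *Ptgir*, Y-linked cells gave -2.28 and -2.01 at 7 dpi, and *Xist* cells of the *Gli1*+ sort -1.78 at 21 dpi. In smooth muscle/pericyte-like cells *Ptgir* stood at 32.6, 23.5 and 26.3 CPM and at 26.8, 19.2 and 27.4 CPM, with log2 ratios of the class between -0.48 and 0.03 whose intervals all held 0. Cluster 6 of the *Gli1*- class held 34.9 (24.9 to 47.5), 18.8 (13.1 to 26.1) and 27.6 CPM (24.0 to 31.6), lower at 7 dpi than before injury, and cluster 9 held 22.7, 21.0 and 22.2 CPM. Mast cell-like cells of the uninjured *Gli1*+ library held 35.2 CPM (28.4 to 43.2) and 19.7% of its *Ptgir* UMIs. Without the unnamed clusters the mesenchymal ratio was -1.53 and -2.20 in *Gli1*+ cells, and -0.98 and -0.50 in *Gli1*- cells, where *Ptgir* was then under 2-fold. Over all kept cells the *Gli1*+ ratio at 21 dpi was -0.85. In stem cell-like *Gli1*+ cells *Ptgir* was 16.6, 5.20 and 4.90 CPM, and in unnamed mesenchymal *Gli1*- cells 20.3, 4.45 and 9.40 CPM.

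*Ptger4* encodes the EP4 receptor of prostaglandin E2. Mesenchymal cells held it at 23.0, 42.5 and 21.9 CPM in the *Gli1*+ and 34.1, 38.9 and 20.1 CPM in the *Gli1*- libraries. Both sorts were highest at 7 dpi. The log2 ratio over uninjured at 7 dpi was 0.88 (0.75 to 1.02) in the *Gli1*+ and 0.19 (0.10 to 0.28) in the *Gli1*- cells, and at 21 dpi -0.07 (-0.21 to 0.07) and -0.76 (-0.87 to -0.65), none of them past 2-fold. Over all kept cells the ratios at 7 dpi were of the other sign, -0.50 and -0.28, and those at 21 dpi were -1.47 and -1.36, both past 2-fold. Y-linked cells gave 0.73 and 0.21 at 7 dpi, and *Xist* cells of the *Gli1*+ sort 0.05 at 21 dpi. At 21 dpi the *Ptger4* sign also turned with TMM factors in the *Gli1*+ (0.40) and without the unnamed clusters in the *Gli1*- sort (0.23). Myeloid-like cells of the uninjured *Gli1*+ library held 181 CPM (168 to 196), the highest level of any class, and lymphoid-like cells 68.2 CPM. Together these immune classes held 19.1% and 50.6% of the *Ptger4* UMIs of that library. In endothelial-like cells *Ptger4* was 41.1, 16.8 and 4.67 CPM in the *Gli1*+ and 84.5, 24.4 and 7.83 CPM in the *Gli1*- libraries. Within the *Gli1*- class, *Ptger4* was 93.1, 54.6 and 47.3 CPM in cluster 3 and 11.7, 9.20 and 2.52 CPM in cluster 8. Each later value was the lower, as in the *Gli1*+ cluster, but this order is given without intervals. In the *Gli1*+ cluster those of 7 and 21 dpi overlapped (8.67 to 29.3 and 2.14 to 8.87 CPM). Chondrocyte-like cells of 21 dpi held 5.23 and 5.17 CPM.

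*Ptger2* encodes the EP2 receptor and was scarce, with 1033 UMIs over the 6 libraries. In mesenchymal cells the gene stood at 2.47, 0.735 and 2.17 CPM in the *Gli1*+ and 1.38, 0.723 and 2.09 CPM in the *Gli1*- libraries. Both libraries of 7 dpi were lowest. The log2 ratio at 7 dpi over uninjured was -1.75 (-2.31 to -1.18) in the *Gli1*+ and -0.93 (-1.47 to -0.39) in the *Gli1*- cells, from 53 and 58 and from 72 and 51 UMIs. At 21 dpi it was -0.18 (-0.62 to 0.27) and 0.60 (0.14 to 1.09). The *Ptger2* ratio at 7 dpi in Y-linked cells was -1.91 and -0.91, and that at 21 dpi in *Gli1*+ *Xist* cells -0.23. The *Ptger2* sign turned without the unnamed clusters at 7 dpi in the *Gli1*- sort (0.12), and at 21 dpi with TMM factors in the *Gli1*+ sort (0.28) and without cells that held a UMI of an endothelial, lymphatic or lymphoid marker in the *Gli1*- sort (-0.34). Over all kept cells the *Gli1*+ ratio at 21 dpi was -1.83, past 2-fold. Lymphoid-like cells held 12.8 CPM and 74.7% of the *Ptger2* UMIs of the uninjured *Gli1*+ library. Unnamed mesenchymal cells held 48.4% and 51.0% of the *Ptger2* UMIs at 21 dpi, with 5.11 and 4.30 CPM.

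*Adora2b* encodes the low-affinity adenosine receptor. In mesenchymal cells the gene stood at 5.83, 4.51 and 4.40 CPM in the *Gli1*+ and 26.9, 5.41 and 5.05 CPM in the *Gli1*- libraries. The uninjured *Gli1*- library stood apart from the other 5, which lay between 4.40 and 5.83 CPM. On the log2 scale the ratio over uninjured in *Gli1*- cells was -2.31 (-2.47 to -2.16) at 7 dpi, and -2.41 (-2.58 to -2.24) for the later time. The *Gli1*+ cells gave -0.37 (-0.66 to -0.07) and -0.41 (-0.69 to -0.11). Among Y-linked cells the *Adora2b* ratio at 7 dpi was 0.06 in the *Gli1*+ sort, of the other sign, and -2.42 in the *Gli1*- sort, and among *Gli1*+ *Xist* cells that at 21 dpi was -0.62. The sign in the *Gli1*+ sort also turned over all kept cells (0.51 and 0.39), without the unnamed clusters at 7 dpi (0.59) and with TMM factors at 21 dpi (0.06). *Gli1*- stem cell-like cells held 84.1 CPM (77.6 to 90.9) in uninjured tendon, 37.2 CPM (26.3 to 51.1) at 7 dpi and 20.6 CPM (9.40 to 39.0) at 21 dpi, the highest of any named class at each time. In uninjured *Gli1*- tendon these cells held 57.6% of the *Adora2b* UMIs. *Gli1*+ stem cell-like cells held 6.53, 8.59 and 5.49 CPM.

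*Adora2a* encodes the high-affinity adenosine receptor of lymphocytes, platelets and vessels. In mesenchymal cells the gene stood at 3.02, 0.638 and 0.792 CPM in the *Gli1*+ and 1.27, 1.02 and 0.930 CPM in the *Gli1*- libraries, from 46 to 102 UMIs each. Only the uninjured *Gli1*+ library stood above the other 5. The log2 ratio over uninjured was -2.24 (-2.81 to -1.69) and -1.93 (-2.44 to -1.42) in the *Gli1*+ cells, and -0.31 (-0.82 to 0.22) and -0.45 (-1.0 to 0.11) in the *Gli1*- cells. Restricted to Y-linked cells *Adora2a* gave -2.21 and -0.36 at 7 dpi, and *Xist* cells of the *Gli1*+ sort gave -1.95 at 21 dpi. The *Gli1*- ratio at 21 dpi was 0.11 without the unnamed clusters. Over all kept cells the *Gli1*- ratios were -1.67 at 7 dpi and -1.22 at 21 dpi, both past 2-fold. Mesenchymal cells held 7.25% of the *Adora2a* UMIs of the uninjured *Gli1*+ library, lymphoid-like cells held 74.1% at 28.5 CPM and mast cell-like cells 12.7% at 47.5 CPM (39.5 to 56.6), the highest level of any class. Within the mesenchyme of that library, unnamed clusters held 17.3 CPM, against 1.54 CPM in stem cell-like and 1.66 CPM in tenocyte-like cells. Without the unnamed clusters the *Adora2a* ratio in *Gli1*+ cells was -0.92 at 7 dpi, under 2-fold, and -1.41 at 21 dpi. The 6 lymphoid markers summed to 27.2, 5.24 and 24.3 CPM in the *Gli1*+ and 0.406, 5.18 and 24.9 CPM in the *Gli1*- mesenchymal cells, beside 2131 CPM in the lymphoid-like cells, with *Cd3e* at 0 UMIs in the mesenchymal cells of 4 libraries. Without mesenchymal cells that held a UMI of an endothelial, lymphatic or lymphoid marker, *Adora2a* was 2.36, 0.568 and 0.696 CPM in the *Gli1*+ and 1.42, 1.24 and 0.921 CPM in the *Gli1*- cells. Smooth muscle/pericyte-like cells held 28.3, 7.33 and 6.09 CPM in the *Gli1*+ and 18.3, 12.0 and 7.34 CPM in the *Gli1*- libraries. Within the *Gli1*- class, cluster 9 held 24.4 (18.4 to 31.8), 16.8 (7.26 to 33.1) and 3.71 CPM (0.0939 to 20.7), from 55, 8 and 1 UMIs. Cluster 6 held 6.11 (2.46 to 12.6), 10.7 (6.55 to 16.6) and 7.47 CPM (5.64 to 9.70), from 7, 20 and 56 UMIs. The intervals overlapped within each cluster, so neither gives an order of the time points.

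Markers of other cell types were counted in the same mesenchymal cells. The 6 endothelial markers summed to 36.3, 12.9 and 11.7 CPM in the *Gli1*+ and 160, 49.9 and 51.6 CPM in the *Gli1*- mesenchymal cells, beside 6382 CPM in endothelial-like cells of the uninjured *Gli1*+ library. The 6 smooth muscle/pericyte markers, which include *Acta2* of myofibroblasts, summed to 43.9, 727 and 241 CPM and to 230, 638 and 292 CPM, highest at 7 dpi, when *Ramp1* and *Ptgir* were lowest. The 7 epidermal markers stood at 2176 CPM in the *Gli1*+ cells of 7 dpi and at 14.7 to 199 CPM in the other 5 libraries. Without cells that held an endothelial, lymphatic or lymphoid marker UMI, *Calcrl* was 51.9, 11.4 and 7.02 CPM in the *Gli1*+ and 90.3, 20.3 and 12.9 CPM in the *Gli1*- cells, and *Ramp1* was 83.0, 7.30 and 32.2 CPM and 94.2, 10.9 and 26.8 CPM. The log2 ratios over uninjured at 7 and 21 dpi were then -2.19 and -2.89 for *Calcrl* in *Gli1*+ cells, -2.15 and -2.81 for *Calcrl* in *Gli1*- cells, and for *Ramp1* -3.51 and -1.36 in *Gli1*+ cells and -3.11 and -1.82 in *Gli1*- cells. The part of the epidermal and smooth muscle markers in the other values was not tested.

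**Figure D5:**
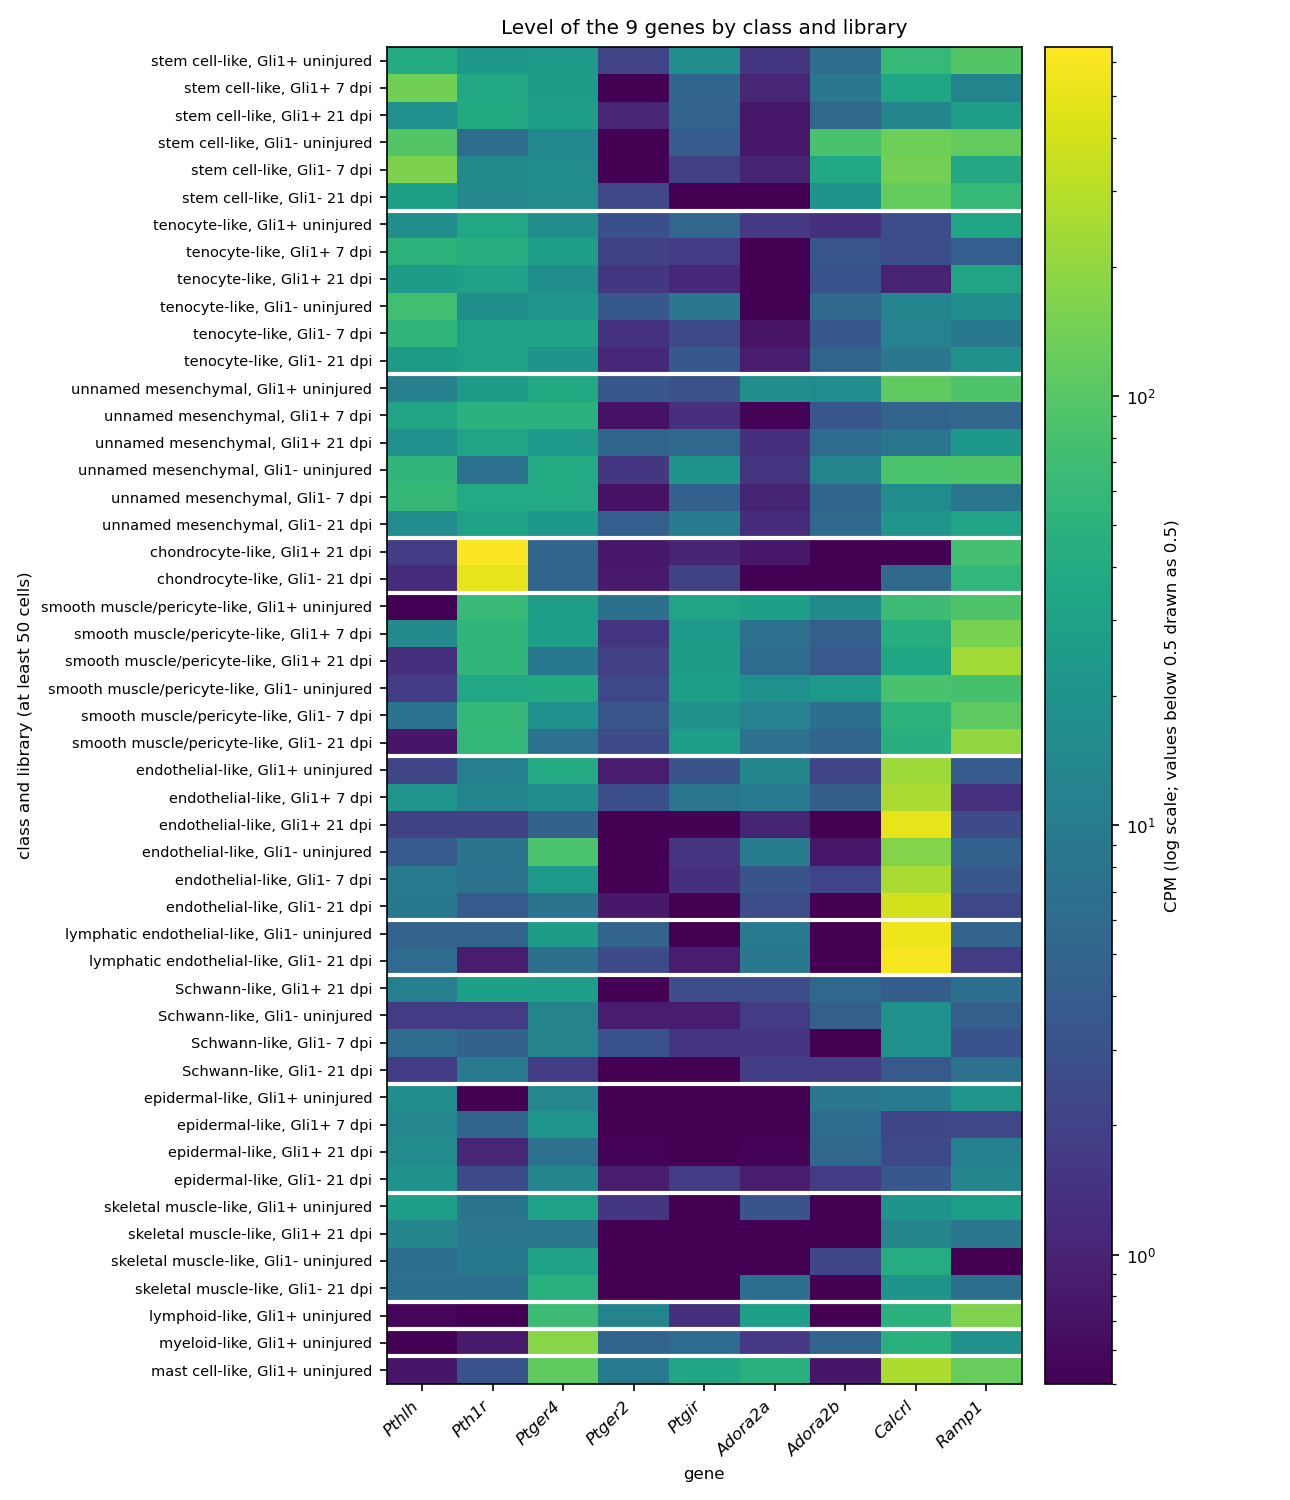
Level of the 9 genes (columns) in each class with at least 50 cells in a library (rows), as colour in CPM on a log scale, with values below 0.5 drawn as 0.5. *Pth1r* is brightest in chondrocyte-like cells of 21 dpi, *Calcrl* in lymphatic endothelial-like and endothelial-like cells, *Adora2a* in mast cell-like cells, and *Ramp1* in smooth muscle/pericyte-like cells.

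The sorts were compared at each time point. In uninjured mesenchymal cells *Pth1r* and *Adora2a* were at least 2-fold higher in *Gli1*+ cells and *Pthlh* and *Adora2b* at least 2-fold lower, 4 of the 9 genes beside 20.6% of all genes tested. The log2 ratio of *Gli1*+ over *Gli1*- was 2.08 (1.90 to 2.26) for *Pth1r*, 1.25 (0.70 to 1.81) for *Adora2a*, -1.11 for *Pthlh* and -2.21 (-2.47 to -1.95) for *Adora2b*. At 7 dpi and at 21 dpi 0 of the 9 genes were 2-fold apart, beside 7.26% and 4.62% of all genes. The ratios then lay between -0.98 (*Ptgir*) and 0.14 (*Pth1r*) at 7 dpi and between -0.91 (*Calcrl*) and 0.23 (*Ramp1*) at 21 dpi. Without the unnamed clusters the sign at 7 dpi turned for *Ptgir* (0.83), *Pth1r* (-1.14), *Pthlh* (0.69) and *Adora2a* (0.40), and over all kept cells that at 21 dpi turned for *Ramp1* (-0.04). Leaving out the unnamed clusters removed 4094 of 7031 *Gli1*+ and 7483 of 8045 *Gli1*- mesenchymal cells at 7 dpi. Those ratios are therefore of other mixes of cells. The uninjured libraries differed in sex, and within their Y-linked cells the ratios were 1.87 for *Pth1r*, 1.35 for *Adora2a*, -1.16 for *Pthlh*, -2.72 for *Adora2b* and -1.13 for *Calcrl*. Over all kept cells the *Pth1r* ratio of the uninjured sorts was 0.63, under 2-fold. The *Adora2a* difference was under 2-fold without marker-positive cells, with TMM factors, and without cell filters or doublet removal.

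Other Gs-coupled receptors were counted by the same rule. Of 40 such genes listed, 18 could be counted in *Gli1*+ cells at 7 dpi, with 3 higher and 10 lower than in uninjured cells, and 16 at 21 dpi, with 1 higher and 8 lower. In *Gli1*- cells 24 were counted at 7 dpi, with 5 higher and 9 lower, and 20 at 21 dpi, with 5 higher and 7 lower. The shares of all genes were 14.5%, 8.26%, 15.6% and 14.2% higher and 21.9%, 23%, 16.3% and 17.3% lower. *Glp2r*, the receptor of glucagon-like peptide 2 and the one with most UMIs, stood at 63.6, 25.0 and 32.4 CPM in the *Gli1*+ and 62.6, 31.6 and 33.5 CPM in the *Gli1*- mesenchymal cells. *Adgrg6*, an adhesion receptor known from myelinating Schwann cells, was at 12.1, 10.5 and 4.91 CPM and at 4.03, 7.76 and 5.41 CPM. As for *Calcrl* and *Ptgir*, both uninjured libraries were highest for *Glp2r*.

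Of 20 genes of the ligands and of enzymes and carriers that make or remove them, 16 and 17 could be counted at 7 and 21 dpi in *Gli1*+ cells, with 2 and 2 higher and 7 and 5 lower. In *Gli1*- cells 16 and 17 were counted, with 2 and 3 higher and 5 and 3 lower. Among all genes 14.5%, 8.26%, 15.6% and 14.2% were higher and 21.9%, 23%, 16.3% and 17.3% lower, so some of these counts are near the share of all genes. *Ptgs2*, the inducible cyclooxygenase that starts prostaglandin synthesis, stood at 73.9, 293 and 156 CPM in the *Gli1*+ and 212, 263 and 154 CPM in the *Gli1*- mesenchymal cells. Its log2 ratio at 7 dpi over uninjured was 1.99 in *Gli1*+ and 0.31 in *Gli1*- cells, and the uninjured *Gli1*+ library was the lowest of the 6. *Adk*, adenosine kinase, was at 240, 110 and 167 CPM and at 160, 112 and 170 CPM, lowest at 7 dpi in both sorts. *Ptges3*, the cytosolic prostaglandin E synthase, was at 169, 191 and 154 CPM and at 190, 191 and 149 CPM.

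Across 49 sums of cells of 1 class in 1 library, over 13 classes, the genes whose log2(CPM + 1) was most like that of each of the 9 were listed among 14748 genes with at least 10 CPM in 1 sum. For *Pthlh* these were *Bnc2* (Pearson correlation 0.79), *Angptl1* (0.78) and *Gga2* (0.77), and for *Pth1r* *Unc5c* (0.87), *Mfge8* (0.83) and *Kdelr3* (0.82). For *Calcrl* they were *Gngt2* (0.80), *9930111J21Rik2* and *Grap* (0.79 each), and for *Ramp1* *5830408C22Rik* (0.79), *Snx18* (0.75) and *Gm56906* (0.71). For the others the nearest were *Kcnab1* (*Ptgir*, 0.75), *Zfp984* (*Ptger4*, 0.64), *Arl5c* (*Ptger2*, 0.80), *Rcsd1* (*Adora2a*, 0.83) and *Adamtsl5* (*Adora2b*, 0.79). Among the 9 genes themselves the highest correlation was that of *Ramp1* and *Ptgir* (0.63) and the lowest that of *Pthlh* and *Adora2a* (-0.53). *Pthlh* and *Pth1r* stood at 0.07, and *Calcrl* and *Ramp1* at -0.04. The sums share libraries and differ in depth, so these correlations are a description.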

How the data were processed

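Single cells of *Gli1*+ and *Gli1*- sorts were measured in 6 libraries. The authors deposited counts, the UMIs of each of 33696 genes per barcode, not normalized. The matrix headers name Cell Ranger 9.0.0, whereas the submitters' processing notes name Cell Ranger 3.1.0, STAR and mm10. The annotation release is not given in the sources used here. The cell filters of the study's methods were applied (200 or more genes, 1000 or more UMIs, log10 genes over log10 UMIs not under 0.7, and neither mitochondrial nor hemoglobin UMIs above 5%). Scrublet in scanpy 1.11.5 then removed 0.8% of cells per 1000 as likely doublets, in place of the study's DoubletFinder, which was not used here. The 3 libraries of a sort were clustered together (2000 variable genes, 30 components, 20 neighbors, Leiden resolution 0.5 with leidenalg 0.10.2), and clusters took the class whose marker list led the other cells by a mean log2 ratio of at least 1 with at least 3 markers raised. Mesenchymal cells are the stem cell-like, tenocyte-like and chondrocyte-like clusters and unnamed ones with *Pdgfra* at 100 CPM or more.

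Levels are summed UMIs per 1000000 (CPM) with exact Poisson intervals, shares are of cells thinned to 2000 UMIs with exact Clopper-Pearson intervals (150 to 1723 shallower cells per library were left out), and a share or level at 0 is given with the limit that 3 counts or the interval allow. Log2 ratios carry intervals of the counts given their sum, and the code for these intervals was checked on simulated counts. TMM factors came from edgeR 4.0.16, used for nothing else. All 9 genes were named, and from each other list the 3 genes with most UMIs, of which 1 is not reported here. Genes such as *Adm*, *Calca*, *Ramp3*, *Ihh* and *Col10a1* were added after their values were seen. The 9 genes and the lists were chosen with earlier results of these data known. Without replicate libraries no test between conditions was made. Alternatives left out or replaced the cell filters, doublet removal, scaling, clustering, cell sets and thinning. A gene overlapping another on either strand can share reads with it, which the counts do not show.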

Additional observations from a re-analysis of the deposited data

Results flagged for a closer look

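In each case below, the log2 ratios of 1 gene under the same contrast lay on opposite sides of 0 in 2 settings, with 1 library per condition, so the differences were not tested. *Pthlh* at 7 dpi over uninjured was 0.92 in *Gli1*+ and -0.11 in *Gli1*- mesenchymal cells, a difference of 1.03, and the *Gli1*- ratio was 0.30 over all kept cells and 0.33 as a mean over cells. *Ptger4* of *Gli1*+ over *Gli1*- cells was -0.57 in uninjured tendon and 0.13 at both 7 and 21 dpi, differences of -0.70 and -0.69, and the uninjured ratio was 0.23 over all kept cells and 0.42 without unnamed clusters. *Adora2a* of *Gli1*+ over *Gli1*- cells was 1.25 in uninjured tendon and -0.68 at 7 dpi, a difference of 1.93, and the uninjured ratio was 0.73 without cells that held an endothelial, lymphatic or lymphoid marker UMI, and the ratio at 7 dpi was 0.40 without unnamed clusters. *Ramp1* of *Gli1*+ over *Gli1*- cells was -0.15 before injury, -0.33 at 7 dpi and 0.23 at 21 dpi, so that the uninjured and 21 dpi ratios differed by -0.38 and those of 7 and 21 dpi by -0.56. The uninjured *Ramp1* ratio was 0.57 over all kept cells and 0.17 within cells with Y-linked and no *Xist* UMIs, and that of 21 dpi was -0.04 over all kept cells. The opposite signs therefore depend on the cells used or, for *Pthlh*, also on how they are weighted.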

How the results depend on the processing

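Of 90 counts of genes at least 2-fold apart under alternatives 80 were within 1.5 times the main count, 10 were not and 0 were reversed, and of 810 log2 ratios 609 moved by less than their interval and 201 by more. All 24 ratios past 2-fold kept their sign in each alternative that gave a value, and 14 stayed past 2-fold in each. Of the 39 ratios under 2-fold, 25 changed sign in at least 1 alternative, as for *Ptgir* of the uninjured sorts (-0.46, and 1.38 without unnamed clusters). Over all kept cells, *Calcrl* (-0.95) and *Ramp1* (-0.89) in *Gli1*- and *Ptgir* (-0.85) in *Gli1*+ libraries at 21 dpi, and *Pth1r* between the uninjured sorts (0.63), were not 2-fold apart. Some ratios under 2-fold in mesenchymal cells were past it over all kept cells. In *Gli1*+ libraries these included *Pthlh* at 7 dpi (1.90), *Pth1r* at 7 and 21 dpi (1.18 and 1.65), and *Ptger4* (-1.47) and *Ptger2* (-1.83) at 21 dpi. In *Gli1*- libraries they included *Adora2a* at 7 and 21 dpi (-1.67 and -1.22) and *Ptger4* at 21 dpi (-1.36). Between the uninjured sorts *Ptger2* was at 2.42. The uninjured comparison of the sorts gave 7 genes apart without unnamed clusters, against 4. At 7 dpi, where 0 genes were apart, TMM factors gave 1 (*Ptgir*), all kept cells 3, the mean over cells 1, cells with Y-linked and no *Xist* UMIs 1, leaving out cells with an endothelial, lymphatic or lymphoid marker UMI 2 and leaving out unnamed clusters 1 (*Pth1r*, at -1.14 against 0.14, so with its sign turned). At 21 dpi, where 0 were apart, omitting the cell filters gave 1, omitting doublet removal 1 and all kept cells 1, *Calcrl* in each. The unnamed clusters left out at 7 dpi were 4094 of 7031 *Gli1*+ and 7483 of 8045 *Gli1*- mesenchymal cells. Of the *Gli1*- cells then kept, the 40 chondrocyte-like ones held 311 *Pth1r* UMIs. Clusters 7, 13 and 1 held 15, 55 and 30. The cause of the changed counts was not tested. The alternatives without unnamed clusters, without chondrocyte-like cells and without marker-positive cells were chosen after seeing the data. Of 162 shares, 158 moved by more than their interval with another thinning depth or none, since the share depends on depth. The 8 comparisons within 1 sex in which a library held too few such cells were not computed. No replicate block applies, since each comparison sets 1 library against 1. A fit of the sort over the 3 time points together, with time as a pairing term, was not run. Depth limits *Adora2a* and *Ptger2* most, at 46 to 102 and 51 to 173 UMIs per library in mesenchymal cells.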
